A study of Mus musculus with 5 samples.

Results

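The small leucine-rich proteoglycans examined here were 10 mouse genes, Dcn, Bgn, Aspn, Lum, Fmod, Prelp, Omd, Kera, Ogn and Epyc, out of 19938 genes measured on whole-transcript microarrays. They were taken as members of the family by gene symbol, among the probe sets that the platform table assigns to 1 gene, and each had 1 probe set. The rule uses no measured value, but the family was picked with earlier results of these data known. The study hybridised total RNA of 5 samples, 1 per group, so no group had a replicate. There were embryonic stem cells (ESCs) in the groups 2i ESCs and S ESCs. Mouse embryonic fibroblasts (MEFs) made up the others, the control MEFs and MEFs named 2n 2i or 4n 2i. All 5 samples came from F1 crosses of the strains 129X1/SvJ and MSM/Ms. By common usage 2i is culture with MEK and GSK3 kinase inhibitors. The labels give no meaning for S, 2n or 4n, which serve only as names. The titles also carry a number. It is 15 for both 2i ESCs and 2n 2i MEFs but 36 for S ESCs. For 4n 2i MEFs it is 2, and for control MEFs 4. Titles of the 2n 2i and 4n 2i MEFs end in a further number, which differs between them. Arrays that are compared can differ in line or embryo as well as in group. The labels do not say that any samples came from separate cultures or embryos.

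Small leucine-rich proteoglycans are secreted proteins of the extracellular matrix, built around a curved row of leucine-rich repeats and usually carrying glycosaminoglycan or other sugar chains. They bind collagen molecules and limit how fibrils grow and pack, and several also bind growth factors such as TGF-beta or signal through cell surface receptors. They are products of fibroblasts and of related cells of skin, tendon, cornea, cartilage and bone. The family is sorted into classes by sequence. Decorin (Dcn), biglycan (Bgn) and asporin (Aspn) form class I, lumican (Lum), fibromodulin (Fmod), Prelp, osteomodulin (Omd) and keratocan (Kera) class II, and osteoglycin (Ogn) and epiphycan (Epyc) class III.

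Promoter sequences of 8 of the 10 members were found in the RefSeq table of assembly GRCm38.p6, and those of Dcn and Lum were not. The windows cover the 250 bases before the annotated start site and are written 5′ to 3′ on the strand of the gene. Bgn is shown because it alone differed strongly between the ESC arrays among these 8, Ogn and Fmod because they differed most among MEF arrays, and Aspn because it had the largest difference between cell types. Capitals mark any match, on either strand, to 1 of 5 short motifs. These were the TATA box, searched as TATAAA, the box with the letters CCAAT, the GC box, searched as GGGCGG, the AP-1 element, searched as TGANTCA, and the TEAD element, searched as GGAATG.
Bgn, chrX:73483351-73483600 (+ strand): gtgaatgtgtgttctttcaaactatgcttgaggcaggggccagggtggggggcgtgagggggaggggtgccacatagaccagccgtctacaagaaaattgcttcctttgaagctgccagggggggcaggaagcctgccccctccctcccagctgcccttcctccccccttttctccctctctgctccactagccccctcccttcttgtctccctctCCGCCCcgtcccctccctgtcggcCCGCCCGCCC
Ogn, chr13:49607765-49608014 (+ strand): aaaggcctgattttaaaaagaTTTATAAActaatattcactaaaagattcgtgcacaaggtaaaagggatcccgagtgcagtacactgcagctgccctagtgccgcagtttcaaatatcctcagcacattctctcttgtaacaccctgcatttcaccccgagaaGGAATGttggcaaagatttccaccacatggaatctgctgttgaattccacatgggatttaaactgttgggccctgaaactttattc
Aspn, chr13:49544193-49544442 (+ strand): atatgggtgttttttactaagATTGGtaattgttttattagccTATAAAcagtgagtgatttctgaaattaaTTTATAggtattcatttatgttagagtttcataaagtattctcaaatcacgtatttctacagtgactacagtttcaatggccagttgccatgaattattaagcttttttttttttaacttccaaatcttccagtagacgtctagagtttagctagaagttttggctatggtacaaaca
Fmod, chr1:134037004-134037253 (+ strand): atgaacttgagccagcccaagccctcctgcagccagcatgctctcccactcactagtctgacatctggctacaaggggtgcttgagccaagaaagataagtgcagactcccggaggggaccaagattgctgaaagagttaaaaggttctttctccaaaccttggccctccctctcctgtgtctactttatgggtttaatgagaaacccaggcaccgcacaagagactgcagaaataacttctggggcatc

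The Bgn window held 3 GC boxes on the other strand, a pair of which overlap next to the start site, and no other motif of the 5. The Aspn window held 2 TATA letter matches and a CCAAT box, at 207 to 202, 178 to 173 and 229 to 225 bases before the start site. The Ogn window held a pair of overlapping TATA matches (229 to 222 bases before the start) and a TEAD match (86 to 81), and the Fmod window none of the 5 motifs. Of all 32851 promoter windows of this length in the table, 12.4% held the TATA letters, 33.8% the CCAAT letters, 32.7% the GC box, 6.75% the AP-1 letters and 12.6% the TEAD letters. Of the 9 member windows (Epyc has 2), the numbers with a match were 2, 3, 1, 0 and 2 in the same order. A match is a description of the letters and not of a bound site.

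The member windows were poor in CpG dinucleotides, the bases that mammalian DNA methylation modifies. Bgn had 7 CpG in 250 bases and a GC content of 64.4%, Prelp 5 CpG and Ogn 4. Aspn and Fmod had 2 each, Omd and Kera 1 each, and the Epyc windows 2 and 0. The median was 2 over the 9 member windows and 6 over all windows. Bgn was the one of these 8 genes above the median of all windows.

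The arrays were described by 1 intensity value per probe set, in the linear units that the authors deposited. Arrays have no sequencing depth, and here their number limits the precision. Each array was given a floor, the median of its probe sets of 1 gene, which lay between 221.6 and 242.1 units. How much of a value under the floor is background is not known, which leaves any fold against it uncertain. Markers checked the labelled cell types. All 6 ESC markers reached the floor on both ESC arrays and none on a MEF array, while 12 of 12 fibroblast markers did in 2n and 4n MEFs and 11 in control MEFs. Many deposited values are identical on different MEF arrays (43.0% of genes for 2n and control), so an exact difference of 0 is not read as measured equality.

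In class I, all 3 genes were bright on every MEF array. Dcn (Entrez Gene 13179), which encodes a collagen-binding proteoglycan that also binds TGF-beta, had an intensity of 80.8 on the 2i ESC array, 307 on the S ESC array, 6797 on the 2n 2i MEF array, 11969.9 on the 4n 2i MEF array and 8345 in control MEFs. The 4n value was the highest, and the 2n value lay below the control value, a sequence that no other member showed. Bgn (Entrez Gene 12111), encoding a proteoglycan that binds collagen and can signal through toll-like receptors, had 181.2 units on the 2i ESC array, 2559 on the S ESC array, 15006 on the 2n array, 14990.1 on the 4n array and 14934 in control MEFs. The MEF values of Bgn were within 1.01-fold of each other, and only 0.302% to 0.357% of probe sets on a MEF array were as bright or brighter. Whether this probe set was near saturation was not tested.

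Aspn (Entrez Gene 66695), a class I member whose product binds collagen and TGF-beta, had 36.1 units on the 2i ESC array, 50.3 on the S ESC array, 5479 on the 2n array, 7478 on the 4n array and 4508 in control MEFs. Its lowest MEF value was 89.6-fold above its highest ESC value, the widest such gap among the members. For Bgn the same gap was 5.84-fold and for Dcn 22.1-fold, because of their values on the S ESC array.

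In class II, Lum, Fmod and Prelp were measured above the floor on all MEF arrays and on no ESC array. Lum (Entrez Gene 17022), encoding a keratan sulfate proteoglycan of cornea and other connective tissues, had 33.3 units in 2i ESCs, 36.6 in S ESCs, 896 in 2n 2i MEFs, 3969 in 4n 2i MEFs and 524.2 in control MEFs. Fmod (Entrez Gene 14264), whose product guides collagen fibril assembly in tendon and other tissues, had 88.2, 90.4, 1013, 2844 and 318.2 units on the arrays in the same sequence. Prelp (Entrez Gene 116847), encoding a protein that links matrix to heparan sulfate chains, had 123.3, 123.6, 1096, 2115 and 954.4 units. For each of these genes the ESC values were nearly equal and the MEF arrays stood in the order 4n, 2n, control.

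The remaining class II genes stayed under the floor on every array. Omd (Entrez Gene 27047), a gene of bone and tooth matrix, had 38.4 and 35.3 units in 2i and S ESCs and 106.6, 131.9 and 89.2 units in 2n, 4n and control MEFs. Kera (Entrez Gene 16545), which encodes a proteoglycan of the cornea, had 46.1 and 37.4 units in the ESCs and 59.6, 64.7 and 59.6 in the MEFs. Both genes were higher on every MEF array than on either ESC array, but at these intensities their levels cannot be separated from background.

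In class III, Ogn (Entrez Gene 18295), which encodes a small protein of bone and other connective tissues also called mimecan, had 46.5 units in 2i ESCs, 60.6 in S ESCs, 3237 in 2n 2i MEFs, 6213 in 4n 2i MEFs and 666.8 in control MEFs. Its MEF values spanned 9.32-fold, the widest range of any member among MEF arrays. Epyc (Entrez Gene 13516), a gene of growth cartilage, had 45.3 and 42.8 units in the ESCs and 53.6, 67.0 and 53.6 in the MEFs, under the floor on every array. The 2n and control values of Kera and of Epyc were identical.

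**Figure D1:**
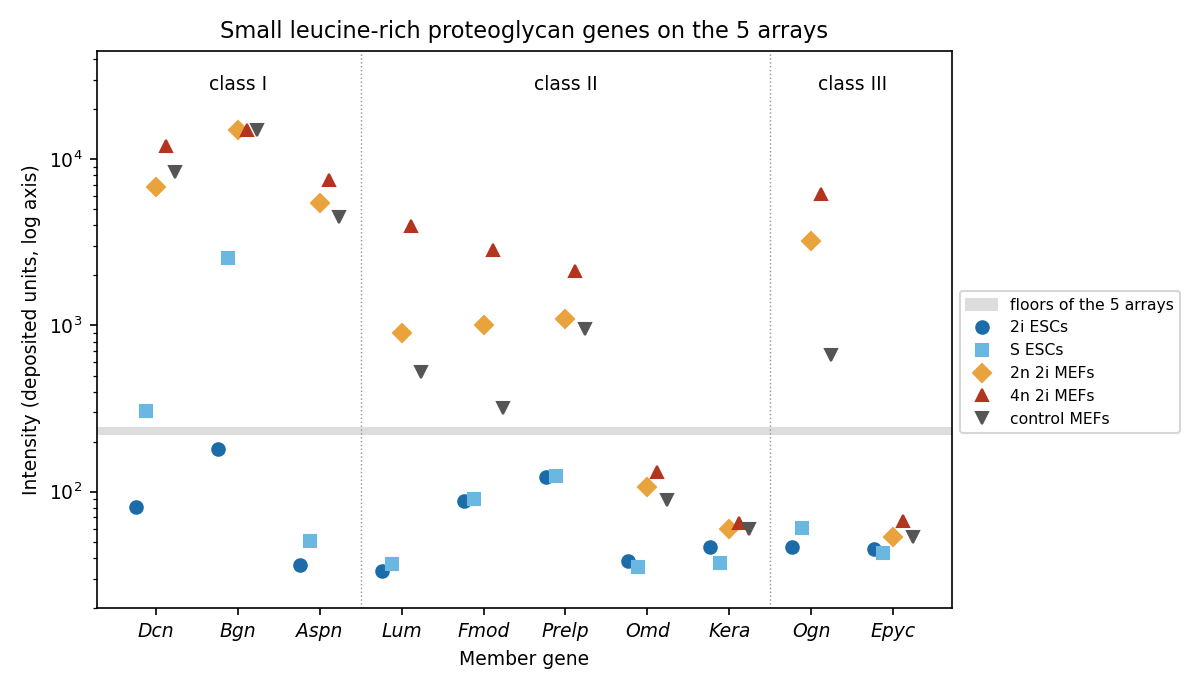
Intensity of the 10 member genes (x axis, sorted by class) on each of the 5 arrays (y axis, deposited units, log axis), 1 point per array with no error since each group had 1 array, and a grey band over the range of the floors (221.6 to 242.1). Every MEF point lies above both ESC points of the same gene, Bgn reaches 2559 units in S ESCs, and Omd, Kera and Epyc stay under the band.

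ESCs and MEFs formed the one comparison with more than 1 array on each side. All 10 members were higher on every MEF array than on either ESC array, a pattern shown by 33.4% of all 19938 genes. The difference was largest in Aspn, at 5.45 ± 0.33 (log2 of the intensity plus 1, SD, n = 2) in ESCs against 12.48 ± 0.37 (SD, n = 3) in MEFs. Aspn was lower in ESCs by a log2 difference of -7.03 (SE 0.28, adjusted p = 0.000293 in limma), which is 130.4-fold and the second lowest difference among 11826 genes tested. Dcn followed at -5.79 (SE 0.64, adjusted p = 0.00256 in limma, 55.4-fold), the 7th lowest. These levels are of bulk RNA, in which fewer cells of a type and less RNA per cell cannot be told apart.

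The other differences were -5.46 for Ogn (SE 1.02), -5.10 for Lum (SE 0.92), -4.45 for Bgn (SE 1.16), -3.43 for Fmod (SE 0.96) and -3.39 for Prelp (SE 0.38). Their adjusted p values in limma were 0.0110 for Ogn, 0.0102 for Lum, 0.0294 for Bgn, 0.0362 for Fmod and 0.00267 for Prelp. All 7 members that reached a floor were therefore called lower in ESCs, against 16.3% of all genes tested, and none was called higher, against 16.6%. Of these 7, 5 reached a floor on MEF arrays alone and so could enter the test only if they were higher there, and the count is not read as support. Omd, Kera and Epyc were not tested, with log2 differences of -1.52, -0.55 and -0.38.

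The spread behind these values is that between conditions and not between replicates of a condition. For Lum, Ogn and Fmod it lay among the MEF arrays (SD 1.51, 1.65 and 1.58, n = 3). Without the 2i ESC array or without the S ESC array these genes were no longer called, with adjusted p values in limma between 0.102 and 0.112 for Lum and Ogn and of 0.203 for Fmod. Fmod was also not called without the 2n array (adjusted p = 0.0912 in limma) or with no floor (0.0523). For Bgn the spread lay between the ESC arrays (SD 2.70, n = 2, against 0.00 among MEFs, n = 3), and its call was lost without any one MEF array (adjusted p in limma from 0.0654 to 0.0771), while the log2 difference was -6.36 without the S ESC array and -2.55 without the 2i ESC array. Aspn, Dcn and Prelp kept their call without any single array.

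The 2i and S ESC arrays were set against each other to describe how these genes differed between them. Their titles also carry different numbers, 15 and 36, so group cannot be told apart from a difference in line or embryo. Bgn and Dcn were lower on the 2i array and no other member reached a floor on either ESC array. Bgn had 181.2 units in 2i ESCs and 2559 in S ESCs, a log2 difference of -3.81 (14.1-fold), which was the second lowest among 10461 genes compared. Dcn had 80.8 and 307 units, a log2 difference of -1.91 (3.77-fold), the 50th lowest. Of all genes compared, 2.54% fell below by 2-fold or more in 2i ESCs and 2.79% lay above by as much, and with 1 array per group these differences have no replicate and no test.

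Both 2i values lay under the floor, which leaves these folds uncertain. Markers of several other cell types also differed between the ESC arrays. Of 12 fibroblast markers, 7 reached a floor on an ESC array, all 7 were lower on the 2i array, and Prrx1 (-1.83) and Cdh11 (-1.62) passed 2-fold. The summed intensity of the 12 markers was 8506 in 2i ESCs and 11314 in S ESCs. Of 6 smooth muscle markers, Acta2 (-2.69), Tagln (-1.61) and Des (-1.42) passed 2-fold in the same direction, and the summed intensity was 1057 against 3118. All 4 epithelial markers were lower on the 2i array, Epcam (-1.57) and Krt8 (-1.31) by at least 2-fold, with sums of 7984 and 10730.1 units. In the other direction, the mesothelial marker Msln (2.28) and the cartilage marker Matn1 (1.48) were higher on the 2i array. Of 3 mesothelial markers compared, 2 were lower there within 2-fold, Wt1 (-0.83) and Lrrn4 (-0.24). As a share of the control MEF level, the excess on the S array was 15.9% for Bgn and 2.71% for Dcn. It ran from 0.327% (Twist1) to 9.79% (Vim) over the fibroblast markers. Over the smooth muscle markers it ran from 1.69% (Myh11) to 6.78% (Acta2), apart from Des. For Des it was 507%, with a control MEF value under the floor. The Bgn share rests on a control MEF value whose saturation was not tested. Twist1, Col3a1, Pdgfra, Postn, Fap, Myh11 and Lmod1 lay under the floor on both ESC arrays, which leaves their shares uncertain. The control MEF value of Fap was under the floor as well. The part of the marker genes of all these lists in the results for Bgn and Dcn was not tested.

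Aspn, Lum, Ogn, Fmod and Prelp stayed under the floor on both ESC arrays, with log2 differences of -0.47, -0.13, -0.38, -0.04 and 0.00. Omd, Kera and Epyc had differences of 0.12, 0.30 and 0.08. Bgn and Dcn were thus the only members past 2-fold between the ESC arrays. Both reached the floor on the S array alone and so could enter only if higher there, and their shared direction is not read as support.

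The MEF arrays were compared to describe what separated MEFs labelled 2i from control MEFs. The 2n and 4n comparisons share the control array, so their values are given side by side. Ogn was 4.85-fold higher in 2n than in control MEFs (log2 difference 2.28) and 9.31-fold higher in 4n MEFs (3.22). Fmod was 3.18-fold (1.67) and 8.91-fold (3.16) higher. Lum was 1.71-fold (0.77) and 7.56-fold (2.92) higher, and Prelp 1.15-fold (0.20) and 2.21-fold (1.15).

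Counts followed the same pattern. On the 2n array, Ogn and Fmod were at least 2-fold higher than on the control array, 2 of the 7 members compared, against 1.49% of 10082 genes. On the 4n array, Ogn, Fmod, Lum and Prelp were, 4 of 7 against 5.28% of 10271 genes. No member was 2-fold lower in either comparison, where 0.427% and 3.44% of genes were. The difference of Ogn on the 2n array was the 16th highest of all genes compared, and on the 4n array those of Ogn, Fmod and Lum were the 41st, 46th and 60th highest.

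The class I genes had no difference past 2-fold among the MEF arrays. Aspn had log2 differences from control of 0.28 (2n) and 0.73 (4n), and Bgn of 0.01 and 0.01. Dcn had -0.30 on the 2n array and 0.52 on the 4n array. Under the floor, Omd had 0.25 and 0.56, Kera 0.00 and 0.12, and Epyc 0.00 and 0.32.

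Set directly against the 2n array, the 4n array was at least 2-fold higher in Lum (4.43-fold, log2 difference 2.15, the 80th highest) and Fmod (2.80-fold, 1.49), 2 of 7 members against 3.34% of 10251 genes. No member was 2-fold lower, where 2.36% of genes were. Prelp (0.95), Ogn (0.94), Dcn (0.82) and Aspn (0.45) were higher by less than 2-fold, and Bgn was at 0.00. With quantile normalization Prelp passed 2-fold here (1.02), and at a threshold of 3-fold Lum alone remained. Over the 3 MEF arrays, 5 of the 7 members above the floor stood in the strict order 4n, 2n, control, as did 15.4% of the 10403 genes above a floor on a MEF array. Of the 7, 6 were highest on the 4n array, with Bgn as the exception, and 28.8% of those 10403 genes were.

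**Figure D2:**
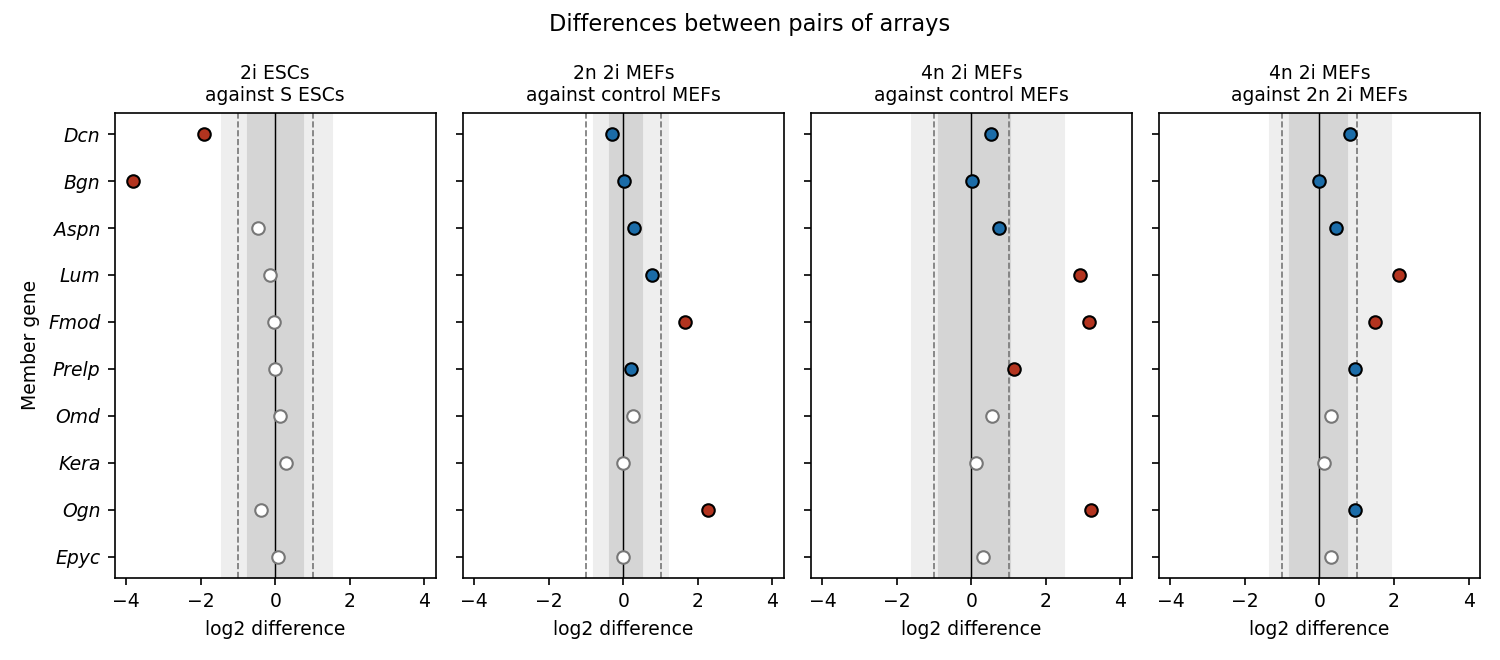
Log2 difference (x axis) of each member (y axis) for 4 pairs of arrays, without error since each group had 1 array. Red points passed 2-fold (dashed lines), blue points did not, white points were under the floor on the brighter array, and the dark and light bands run between the 5th and the 95th and between the 1st and the 99th percentile of all genes compared. Bgn (-3.81) and Dcn (-1.91) lie far left for the ESC arrays, and Ogn, Fmod and Lum lie right of the light band for 4n against control MEFs.

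Markers of other cell types also moved between the MEF arrays. Of 8 macrophage markers, 6 reached the floor in 4n 2i MEFs and 1 in each other sample, and their summed intensity was 12317 units in 4n, 1053 in 2n and 1296 in control MEFs. The 6 were C1qb (log2 difference of 4n from control 4.47), Tyrobp (3.87), Cd68 (3.24), C1qa (2.63), Adgre1 (2.55) and Csf1r (1.75), and all 6 were also past 2-fold against 2n MEFs. Of 6 mesothelial markers, all reached the floor in 2n and 4n MEFs and 2 in control MEFs, with sums of 5142, 8551 and 1642 units. Upk3b (2.89 in 2n and 3.89 in 4n, from control), Lrrn4 (2.69 and 3.46), Upk1b (2.13 and 2.75), Wt1 (1.43 and 2.18) and Msln (1.24 and 2.39) were past 2-fold in both, and Msln also in 4n against 2n MEFs (1.15). Krt19 lay below control within 2-fold (-0.08 in 2n and -0.34 in 4n).

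Of 4 tendon markers, 3 reached the floor in 2n and in control MEFs and 4 in 4n MEFs, with sums of 1300.2, 2131 and 901.2 units for 2n, 4n and control. Tnmd was higher than in control MEFs in 2n (1.36) and 4n (1.37), and Thbs4 (1.71) and Scx (1.57), a tendon transcription factor, in 4n MEFs. Against 2n MEFs, Thbs4 (1.71) and Scx (1.43) were higher in 4n. The 12 fibroblast markers summed to 88583 units in 2n, 93529 in 4n and 82115 in control MEFs, sums that the brightest genes carry. Fap, encoding a fibroblast activation protease, had 247.2 units in 2n, 878.4 in 4n and 80.9 in control MEFs, the order of Ogn, Fmod, Lum and Prelp, and Col3a1 was higher in 4n (1.40 from control). Fap was past 2-fold in all 3 pairs of MEF arrays, at 3.03-fold (2n) and 10.7-fold (4n) over control and with a log2 difference of 1.83 between 4n and 2n. The smooth muscle marker Des had 737.9, 1339 and 96.3 units in 2n, 4n and control MEFs (2.92 and 3.78 from control), while the 5 others of that list stayed within 2-fold. The control values of Fap, Des and Thbs4 and the 2n value of Thbs4 lay under the floor, which leaves folds against them uncertain. No marker of these lists was at 0 on any array, since the lowest deposited intensity was 21.3. The part of these markers in the differences of Ogn, Fmod, Lum and Prelp was not tested.

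By the RefSeq gene table of GRCm38.p6, used here for the order of genes, 9 of the 10 members lie in clusters and Bgn lies apart on chromosome X. On chromosome 10 the order is Btg1, Dcn, Lum, Kera, Epyc, Ccer1, leaving out predicted genes. Dcn and Lum were above the floor on every MEF array and Kera and Epyc, directly beside them, were not. Btg1, a growth-inhibiting gene, had 3616, 3123 and 3324 units on the 2n, 4n and control arrays and did not follow Lum. On chromosome 13 the order is Ecm2, Aspn, Omd, Ogn, Nol8. Aspn and Ogn were above the floor on every MEF array, and Omd, between them, stayed under it. So did Ecm2, a further gene of the family, at 100.7, 139.7 and 74.2 units on the 2n, 4n and control arrays. Nol8, a nucleolar protein gene, was lower on the 4n array (441.9 units) than on the control array (824.1).

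On chromosome 1 the order is Optc, Prelp, Fmod, Btg2. Optc, encoding opticin of the eye, stayed under the floor. Btg2, a growth-inhibiting gene, had 2104 units in 2n, 955.5 in 4n and 1035 in control MEFs. On chromosome X, Bgn lies between Haus7 and Atp2b3. Haus7 had 2337 and 2232 units in 2i and S ESCs, so it was not higher in S ESCs as Bgn was. Atp2b3 had 236.5 and 124.8 units there and stayed under the floor on every array. No neighbour outside the family had the 4n, 2n, control order of Lum, Ogn, Fmod and Prelp.

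**Figure D3:**
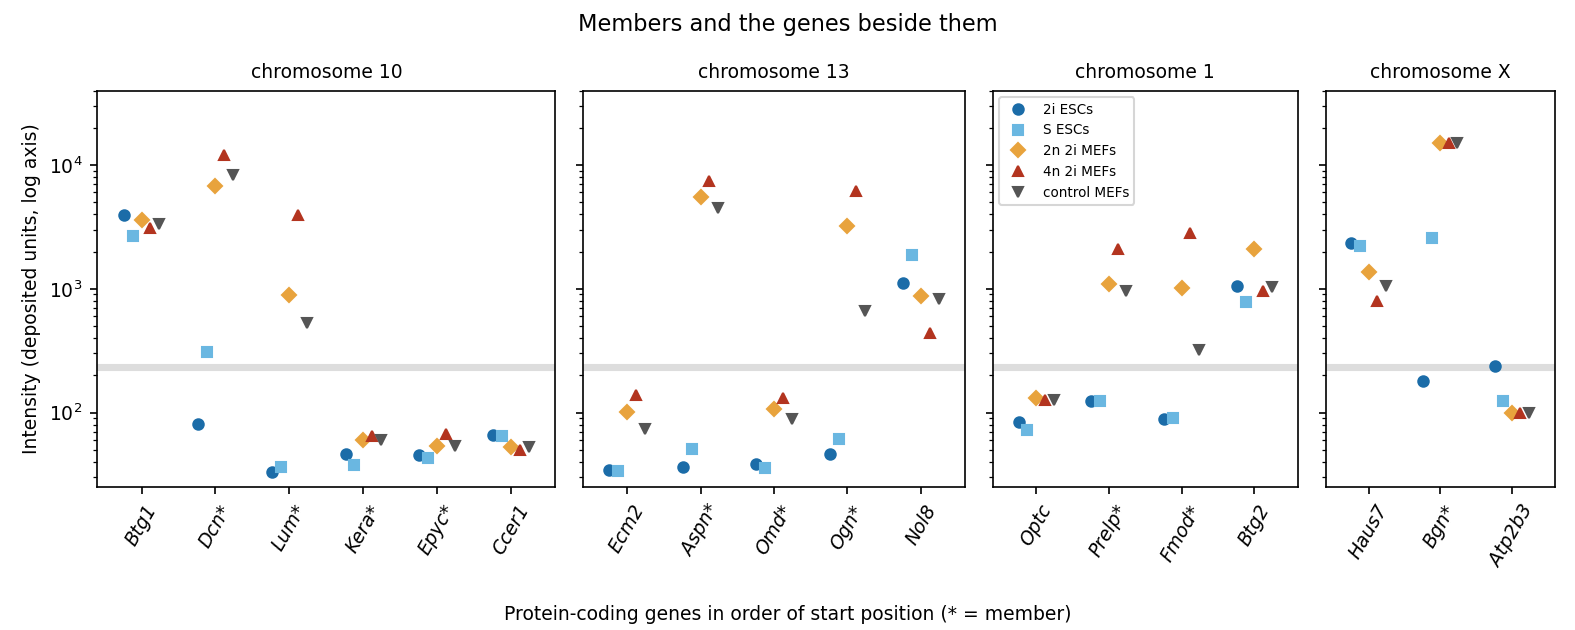
Intensity (y axis, deposited units, log axis) of the members (asterisks) and of the protein-coding genes beside them, in order of start position on 4 chromosomes, 1 point per array and the range of the floors in grey. Dcn, Lum, Aspn and Ogn lie above the band on every MEF array, Lum and Ogn least so in control MEFs (524.2 and 666.8). Kera, Epyc and Omd in the same clusters stay under it.

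Genes whose profiles over the 5 arrays were most like a member's were found by the root mean square distance of centred log2 values, among 11428 genes above a floor. This is a description over 5 arrays, which share one contrast of cell types. Closest to Dcn were Tagln (distance 0.24), a smooth muscle actin-binding protein gene, Thbs2 (0.29), encoding a thrombospondin, and the mesenchymal cadherin gene Cdh11 (0.31). Closest to Bgn were Thbs1 (0.16), a further thrombospondin gene, the tenascin gene Tnc (0.34) and the smooth muscle actin gene Acta2 (0.44), and Thbs1 had 208.7 units in 2i ESCs against 3079 in S ESCs. Closest to Aspn were Postn (0.23), Ccdc80 (0.51) and Cdh11 (0.58).

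Lum and Ogn shared their closest gene, Ccn3 (0.32 and 0.39), which encodes a secreted matricellular protein, and were each other's closest member (0.54). The next genes were Fabp7 (0.47) and Mfap2 (0.48) for Lum and Ptn (0.51) for Ogn. Closest to Fmod were Abi3bp (0.18), with 629.2, 2071 and 210.0 units on the 2n, 4n and control arrays, Pi15 (0.22) and Srpx (0.27). Closest to Prelp were Nbl1 (0.18), Pcdh11x (0.18) and Meis1 (0.19), and Fmod and Prelp were each other's closest member (0.66).

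Over all genes, the shares against which list counts are read were 16.3% lower and 16.6% higher in ESCs than in MEFs, 2.54% and 2.79% in 2i than in S ESCs, 0.427% and 1.49% in 2n than in control MEFs, 3.44% and 5.28% in 4n than in control MEFs, and 2.36% and 3.34% in 4n than in 2n MEFs. Lists hold few genes, and nothing particular to a list is read from its count. A gene above the floor in 1 cell type alone could enter the test between cell types only if higher there. Col12a1, Tgfb3 and Tll1, above it on MEF arrays only, are examples. List counts between cell types are therefore not read as support.

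Among the other genes of the family, 6 of 7 were measured and Tsku was not analysed here. Podn, encoding podocan, had 219.7 and 201.5 units in 2i and S ESCs and 757.5, 2374 and 559.5 in 2n, 4n and control MEFs. Its ESC level was below its MEF level by a log2 difference of -2.25 (adjusted p = 0.0433 in limma), and it was higher on the 4n than the control array (2.08). Podnl1 had 391.4, 170.1 and 373.7 units in 2n, 4n and control MEFs, and was lower in ESCs (-1.66, adjusted p = 0.0264 in limma) and on the 4n array (-1.13 from control). Nyx, a gene of the retina, was not called in any comparison (0.08 between cell types, adjusted p = 0.539 in limma), and Ecm2, Optc and Chad stayed under the floor. The family thus held members that were higher and a member that was lower on the 4n array.

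Enzymes that build the sugar chains of these proteins were counted under the limit given above. Of 24 genes for the linker and for chondroitin or dermatan sulfate, 21 were tested between cell types, 10 were lower in ESCs and none higher, with a median of -0.90 against 0.06 over all genes. They were led by Csgalnact1 (-2.96), which starts chondroitin chains, the dermatan sulfotransferase gene Chst14 (-2.60), and the chain polymerase genes Chsy3 (-2.22) and Chpf2 (-1.96). Between the ESC arrays, between 2n and control MEFs and between 4n and control MEFs none of these genes passed 2-fold, with medians of 0.17, 0.00 and -0.03, and between 4n and 2n MEFs Csgalnact1 was lower (-1.15). Of 8 keratan sulfate genes, 6 were tested between cell types. Chst2 (-1.73), B4galt1 (-1.53) and B4galt4 (-1.13) were lower in ESCs and B3gnt7 (2.00) higher, and Chst2 was lower on the 4n than the control array (-1.24).

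Fibril collagens and their partners were read under the same limit. Of 16 tested, 11 were lower in ESCs (16.3% of all genes) and none higher (16.6%), with a median of -3.82, led by Col12a1 (-5.82), Thbs2 (-5.50), Col1a1 (-4.81) and Col1a2 (-4.72). On the 4n array Eln (4.00), the elastin gene, Col14a1 (3.28), Col3a1 (1.40) and Col11a1 (1.09) were at least 2-fold higher than on the control array, 4 of 16 against 5.28% of all genes. On the 2n array Col14a1 was (1.59), 1 of 16 against 1.49%, and between 4n and 2n MEFs Eln (3.99) and Col14a1 (1.69) were higher. Col14a1, a fibril-associated collagen, had 618.4, 1991 and 204.6 units on the 2n, 4n and control arrays, the same order as Fmod. Its control value lay under the floor, which leaves folds against it uncertain. Between the ESC arrays Thbs2 was lower on the 2i array (-1.71), 1 of 7 compared.

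Of 17 receptors and bound signals tested between cell types, 13 were lower in ESCs against 16.3% of all genes (median -2.23), led by Tgfb3 (-5.69), Ccn4 (-5.10), Ly96 (-3.80), which pairs with the toll-like receptor 4, and Tgfb1 (-3.14), and P2rx7 (2.60) was higher. Bmp4, a growth factor gene, had 1813, 2976 and 245.2 units on the 2n, 4n and control arrays, log2 differences from control of 2.88 and 3.60, and 492.9 against 2101 units in 2i and S ESCs (-2.09). Tgfb2 was higher on the 2n array (1.18), and P2rx7 was higher in 2i than in S ESCs (1.29). Of 12 processing and cleavage genes, 11 were lower in ESCs, against the same 16.3% (median -2.68), led by Adamts5 (-6.09), Timp2 (-4.89), Mmp14 (-4.23) and Timp3 (-3.98). Between the ESC arrays Timp2 (-1.62), Mmp14 (-1.37) and Mmp2 (-1.15) were lower on the 2i array, 3 of 8 compared, against 2.54% of all genes. The collagenase gene Mmp13 was higher in 2n (1.47) and 4n MEFs (3.40) than in control MEFs and Tll1, a procollagen-processing protease gene, lower on the 4n array (-2.53). The 4n array also differed from the 2n array in Mmp13 (1.93) and Tll1 (-1.87).

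Other proteoglycans were mixed. Of 18 tested, 9 were lower in ESCs, led by Gpc6 (-3.29), Cspg4 (-3.29), Vcan (-3.02) and Sdc2 (-2.66), and Srgn (2.87) and Spock2 (1.73) were higher, with a median of -1.34. Between the ESC arrays Sdc4 (1.22) and Srgn (1.15) were higher and Vcan (-1.15) lower on the 2i array. On the 4n array Gpc3 (3.54), Agrn (2.05) and Srgn (1.53) were higher and Cspg4 (-1.38) and Vcan (-1.31) lower than on the control array. On the 2n array Prg4 (1.49) and Gpc3 (1.29) were higher than on the control array. Between 4n and 2n MEFs Gpc3 (2.25), Agrn (1.73) and Srgn (1.58) were higher and Prg4 lower (-1.43). Vcan, a large chondroitin sulfate proteoglycan, had 6484, 3490.4 and 8651 units on the 2n, 4n and control arrays, the reverse of the order of Lum, Ogn, Fmod and Prelp.

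**Figure D4:**
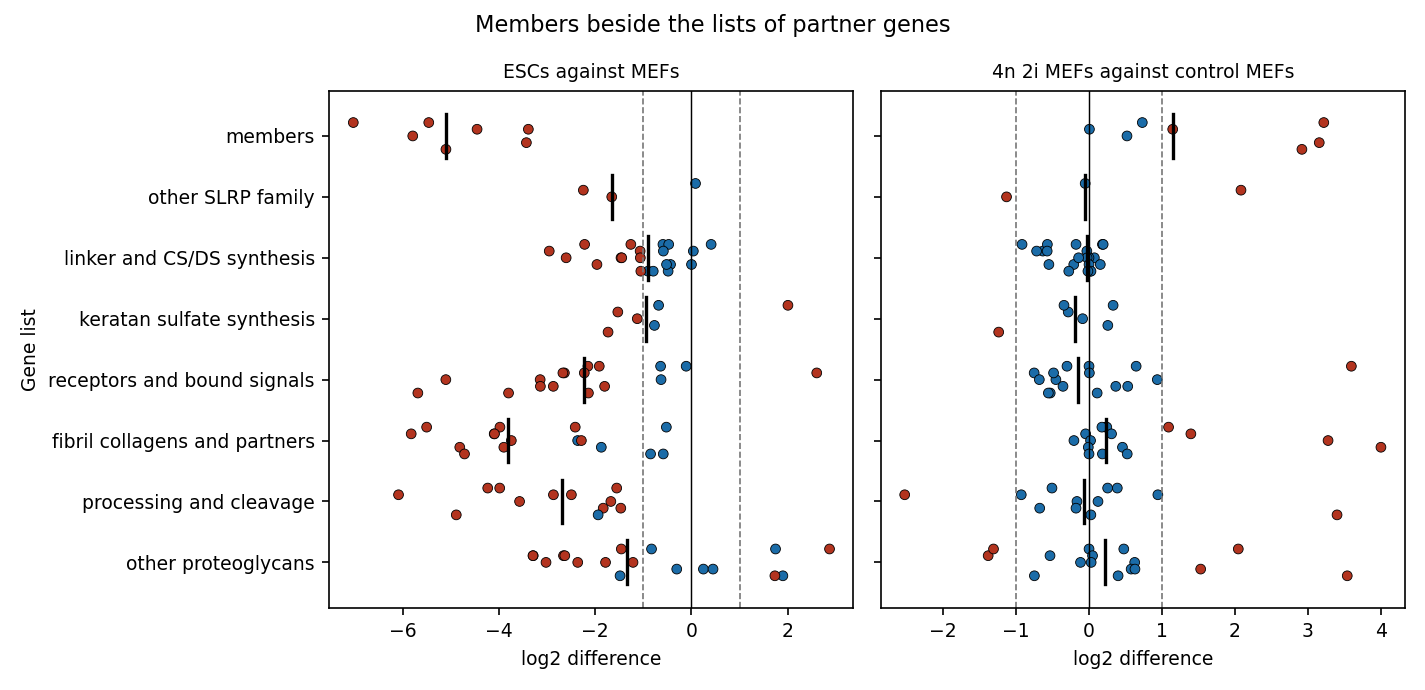
Log2 difference (x axis) of each member and each gene of 7 lists of partner genes (y axis) that was compared, for ESCs against MEFs (red: adjusted p under 0.05 in limma and at least 2-fold) and for 4n 2i MEFs against control MEFs (red: at least 2-fold, no test). Black bars are medians and dashed lines mark 2-fold, with vertical position within a list without meaning. The 7 members compared have a median of -5.10 for ESCs against MEFs. Of these, 5 reached a floor on MEF arrays alone and could enter only if higher there, so the median is not ranked against the lists. On the 4n array 4 of the 7 lie past 2-fold, while the genes for the linker and for chondroitin or dermatan sulfate chains stay within it.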

How the data were processed

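Total RNA of 5 samples, 1 per group, was purified on columns, labelled with biotin and measured on Affymetrix mouse arrays (per the labels). Linear intensity values of 28853 probe sets were deposited by the authors. Their background correction, summary and normalization are not given in the sources used here. Probe sets with 1 gene numbered 21789, those with several genes 1621 and those without a gene 5443. Symbols were updated through Entrez numbers to RefSeq (GRCm38.p6; 21698 matched), and the brightest of several probe sets stood for a gene.

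Intensities were analysed as log2(value + 1). A gene entered a comparison when an array (for pairs, the brighter array) reached its floor, the median of the probe sets of 1 gene. ESC and MEF arrays (2 and 3) were compared with limma 3.58.1 in R 4.3.3 (lmFit, eBayes, Benjamini-Hochberg over all genes, adjusted p under 0.05 and at least 2-fold, 3 residual degrees of freedom), after a check on simulated data. Pairs of arrays were compared by log2 difference past 2-fold, without a test. p-values measure only the spread between these samples.

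The members and the gene lists were chosen with earlier results of these data known. All members were named, with up to 4 genes of each partner list per direction and comparison (marker lists are given by counts between ESCs and MEFs), list and marker genes past 2-fold between ESC or MEF arrays, the 3 nearest profiles (clone-named and predicted genes left out) and the flanking genes. The alternatives were quantile normalization, a pseudocount of 16, dropping the floor or raising it to the 75th percentile, averaging probe sets, a 3-fold threshold, leaving out each array, a trended robust prior, and leaving out genes with identical MEF values. Python 3.11.15, numpy 2.4.6, pandas 2.3.3 and matplotlib 3.10.9 were used.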

Additional observations from a re-analysis of the deposited data

How the results depend on the processing

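No member called in any comparison changed direction under an alternative. For ESCs against MEFs, 7 members were called; leaving out 1 array each gave 4 to 6 called members (4 without either ESC array), and each other alternative gave 7. With no floor these were 7 of 10, Omd taking the place of Fmod. A left-out ESC array leaves 1 ESC array, which is then assumed to vary like the MEF arrays. Between the 2i and S ESC arrays, 1 of the 2 members past 2-fold was left with a floor at the 75th percentile, where Bgn alone was compared. Between 4n and 2n MEFs, 1 of 2 was left at a threshold of 3-fold. All other counts of members stayed within 1.5 times. Over all genes, 1923 were called lower in ESCs, 1324 with that higher floor and 1588 without genes of identical MEF values, and 1967 higher, against 1126 and 1031, with fewer genes tested in both. The share of all genes called lower was 16.3% and fell to 9.91% with no floor, where 19938 genes were tested. Leaving out an array could not be applied to pairs of arrays. No paired analysis was possible because each group holds 1 array. Without replicate arrays, differences between pairs of arrays have no measured error, and values under the floors hold an unknown background.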

Other observations

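Markers of cartilage and bone, tissues that are rich in Omd, Epyc, Prelp and Bgn, gave a mixed account of these arrays. Of 10 listed markers, 8 were measured. Sox9, the master regulator of cartilage, had 172.6 and 158.7 units in 2i and S ESCs and 1610 units in 2n, 1073 in 4n and 1408 in control MEFs. The cartilage proteoglycan gene Acan and the bone genes Sp7 and Ibsp stayed under the floor in every sample. Col2a1, the main collagen of cartilage, was above the floor in all 5 samples, with 336.0 and 298.4 units in 2i and S ESCs and 480.2, 479.9 and 408.9 in 2n, 4n and control MEFs. Alpl, the tissue-nonspecific alkaline phosphatase gene, which ESCs also express, had 5654 and 3819 units in 2i and S ESCs and at most 178.1 in MEFs. Matn1 and Matn3, matrilin genes, were also called higher in ESCs, with log2 differences of 2.10 and 1.32 (adjusted p = 0.0172 and 0.00835 in limma). Both reached the floor on the 2i ESC array alone, with 594.2 and 371.2 units there against 212.8 and 240.4 in S ESCs. They entered the test only through the side where they were higher, so these calls are not read as support. Matn1 had an identical deposited value, 82.2 units, on every MEF array, which is not read as measured equality.

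Sox10, a Schwann cell and neural crest regulator, had 628.5 units in 4n 2i MEFs, 196.0 in 2n 2i MEFs and 176.1 in control MEFs, log2 differences of 4n from these of 1.68 and 1.83. Of 4 endothelial markers, Pecam1 (1442 and 1117 units in 2i and S ESCs) and Tek (555.9 and 392.6) were above the floor in both ESC samples. Both were called higher there, but they were under the floor in all MEFs and entered the test only through ESCs. The calls of Pecam1 and Tek are therefore not read as support. Kdr reached the floor only in control MEFs (235.9) and Cdh5 in no sample.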
